A study of Macaca mulatta with 30 samples.

Results

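The amino acid and neurotransmitter transporters described here are the genes of 7 solute carrier families, SLC1A, SLC3A, SLC6A, SLC7A, SLC36A, SLC38A and SLC43A, measured by RNA sequencing in the lung and hippocampus of fetal rhesus macaques whose mothers received betamethasone. Members were chosen by gene symbol alone: every row of the lung or hippocampus count table whose rhesus symbol begins with one of these family names and that reached 7 reads or more in 3 or more lungs, or in 5 or more hippocampi. Of 59 such symbols in the reference name table, 54 were matched to a row, and 49 of the 21976 genes that passed this read minimum in either tissue were members. In lung 40 members passed among 17644 genes, in hippocampus 44 among 17390, and 35 passed in both tissues.

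These carriers move amino acids and small transmitters across membranes, mostly against a gradient and mostly driven by sodium, protons or exchange for another amino acid. In brain, the SLC1 carriers clear glutamate from synapses, largely into astrocytes, and the SLC6 carriers take up GABA, glycine, monoamines, proline, taurine and creatine. The SLC7 carriers exchange neutral or cationic amino acids, many of them only as a pair with the heavy chain SLC3A2 or SLC3A1, and the SLC38 and SLC43 carriers supply glutamine, alanine, leucine and other neutral amino acids to cells in many tissues, lung included.

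The mothers were given a single intramuscular injection. Lung came from 5 groups of 3 fetuses: saline control, the clinical drug (Celestone, a mixture of betamethasone phosphate and betamethasone acetate, 0.25 mg/kg) with delivery 4 h or 5 days later, and betamethasone acetate alone (Beta-Ac, 0.125 mg/kg) with delivery 6 h or 5 days later. Hippocampus came from 3 groups of 5 fetuses, all labelled as delivered 5 days after injection: control, clinical drug and Beta-Ac, with 9 animals giving both tissues. All animals were wild type, and the age field reads gestational days 124 to 130 for every lung and 130 to 136 for the hippocampi. For all 9 animals that gave both tissues, the hippocampus age lies above the range in the lung field. The hippocampus labels also contradict each other: libraries named BAC carry the mixture at 0.25 mg/kg in their treatment and dose fields, and libraries named CEL carry the acetate at 0.125 mg/kg. The library names were followed here because the lung labels place 3 of the CEL animals under Celestone and 3 of the BAC animals under Beta-Ac; the other grouping exchanges the names of the treated groups, leaves the controls as they are, and is given as an alternative.

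The deposited values were read counts per gene, from 14.07 to 45.03 M reads per lung library and from 18.28 to 29.3 M per hippocampus library. Member genes took 0.0788 to 0.0929% of the reads in lung and 0.393 to 0.555% in hippocampus. Levels are given below as CPM (read counts per 1 M reads of the library, scaled by TMM), which are not divided by gene length, so that they compare a gene between samples but not one gene with another. FKBP5, a glucocorticoid-induced chaperone, averaged 173 CPM 4 h after the clinical drug, 52.0 CPM 6 h after Beta-Ac and 5.61 CPM in controls. In the hippocampus 1 control stood apart, with 420.7 CPM of CLIC6 and 325.6 CPM of FOLR1, which mark choroid plexus, where no other library exceeded 3.32 CPM of either. That library, called the choroid plexus control below, also held the highest level of the striatal marker PPP1R1B, 155.7 CPM, and the Beta-Ac library of animal 16-130 the next, 107.4 CPM. Whole tissue was sequenced, so that fewer cells of a type and less RNA per cell cannot be told apart. Labels name animals but not litters or cultures, and each animal gave 1 library per tissue, so that the tests measure the spread between animals.

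A gene was called when its fold change reached 1.5 and edgeR's quasi-likelihood test put its p below 0.05 and its adjusted p (q) below 0.1, the adjustment being Storey's in lung and Benjamini-Hochberg's in hippocampus. Differences are log2 fold changes with standard errors (SE), and means are given with the SD.

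SLC6A20, a sodium-coupled carrier of proline and other imino acids known from kidney, intestine and choroid plexus, was, among the 40 members tested in lung, the one with no reads in any control. Its 3 control lungs held 0, 0 and 0 reads. Its 3 lungs at 4 h after the clinical drug held 96, 28 and 15 reads, or 2.22, 2.09 and 0.939 CPM (mean 1.75 ± 0.707, n = 3). Every treated lung in the 4 groups held at least 1 read, but each of the other treated groups contained a lung with 1 or 2 reads.

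At 6 h after Beta-Ac the SLC6A20 values were 142, 71 and 1 reads, or 7.19, 2.51 and 0.0482 CPM (3.25 ± 3.63, n = 3). At 5 days they were 2, 84 and 78 reads after the clinical drug (0.0922, 2.83 and 2.99 CPM) and 147, 2 and 60 reads after Beta-Ac (5.74, 0.0772 and 2.21 CPM). The other 2 lungs of each of these 3 groups exceeded 2 CPM. Against a floor of 3 reads summed over the 3 controls, SLC6A20 stood at least 32.8-fold higher in the 4 h lungs of the clinical drug and at least 53.3-fold higher in the 6 h lungs of Beta-Ac. On day 5 it was at least 36.3-fold higher with the clinical drug and at least 45.5-fold higher with Beta-Ac. The Beta-Ac bounds leaned on single lungs, being 25.1-fold at 6 h without animal 16-123 and 20.001-fold on day 5 without animal 16-128.

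Of these 4 comparisons the quasi-likelihood test called SLC6A20 in the 4 h lungs alone (Storey q = 0.0926). Against the same controls q was 0.226 at 6 h after Beta-Ac, 0.931 at 5 days after the clinical drug and 0.665 at 5 days after Beta-Ac. With DESeq2 the adjusted p was 0.00446 in the 4 h lungs, 0.00598 in the 6 h lungs, 0.118 at 5 days after the clinical drug and 0.038 at 5 days after Beta-Ac. The 4 h call was lost when any one of the 6 libraries was left out, with Benjamini-Hochberg adjustment, and without the filter on low counts. With no reads in controls, SLC6A20 passed the read minimum through treated lungs alone. Its tests against control are therefore not independent of that filter. Between the 4 h and the 6 h lungs SLC6A20 differed by -0.87 ± 1.29 (q = 0.46), less than its SE.

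In hippocampus SLC6A20 was present in every library and varied widely within groups. Controls held 13.6, 13.3, 6.90, 1.55 and 75.8 CPM, clinical drug libraries 10.7, 7.51, 2.75, 8.004 and 8.93 CPM, and Beta-Ac libraries 4.73, 175.1, 4.21, 8.42 and 13.7 CPM. The highest control was the choroid plexus control, and the highest Beta-Ac library was animal 16-130, whose lung held 2 SLC6A20 reads and whose hippocampus was the one with 218 reads of SLC6A4, the serotonin transporter (8.98 CPM, at most 0.720 CPM elsewhere). No comparison was called for SLC6A20 in hippocampus (clinical drug against control -1.56 ± 1.05, q = 0.333, and Beta-Ac against control 0.89 ± 1.01, q = 0.764). Without animal 16-130 the difference of Beta-Ac from control was -1.52, so that its direction rested on that library. Within sequencing run 1630 the clinical drug libraries differed from the 1 control by -0.18 and within run 0164, whose control is the choroid plexus control, by -3.15 on the log2 scale.

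**Figure D1:**
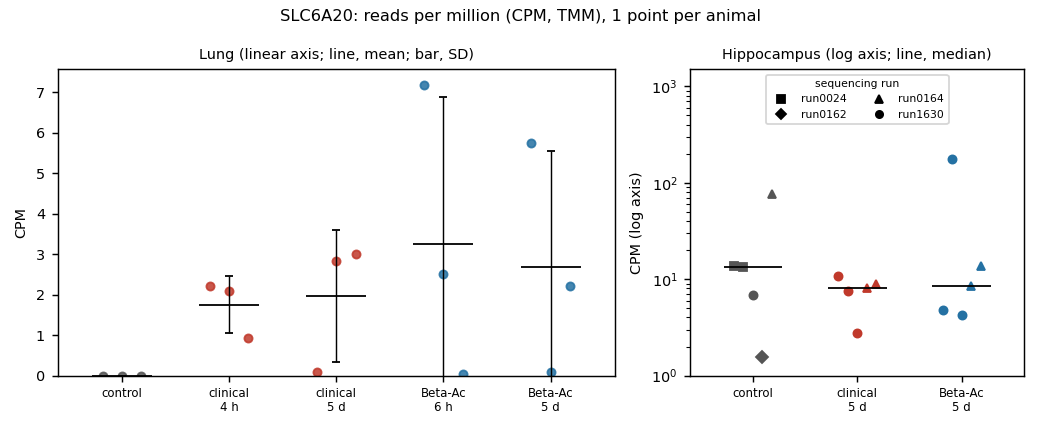
SLC6A20 in CPM, 1 point per animal, in the 5 lung groups (left, linear axis, line at the mean, bar 1 SD) and the 3 hippocampus groups (right, log axis, line at the median, point shape for the sequencing run). All 3 control lungs sit at 0, every group but the clinical drug at 4 h has a treated lung near 0, and 1 hippocampus library reaches 75.8 CPM in controls and another 175.1 CPM after Beta-Ac.

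The members whose lung levels were most like those of SLC6A20 over the 15 lung libraries, by Pearson correlation of log2 CPM, were SLC1A4 (r = 0.711), SLC7A10 (0.541), SLC7A8 (0.446), SLC43A3 (0.444) and SLC36A1 (0.426). These coefficients describe libraries that share the 5 groups, and none was computed within groups. SLC1A4, a neutral amino acid exchanger, held 2.50, 1.44 and 2.16 CPM in control lungs and 3.61, 2.84 and 3.57 CPM at 4 h after the clinical drug, without overlap (0.72, q = 0.136), and was not called.

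The comparison of lung 4 h after the clinical drug with control asks which transporters had moved early. The paper chose this time from drug levels measured in fetal sheep. Among the 40 members tested, 6 were called (15%), SLC6A20 and SLC1A1 higher and SLC7A13, SLC1A3, SLC7A2 and SLC6A16 lower, against 7.4% of all genes tested (3.46% higher, 3.94% lower). Of the 6, SLC6A20 had passed the read minimum through treated lungs alone. The median log2 fold change of the members was 0.19, against 0.02 over all genes, and it was the same with SLC6A20 set at its bound, since that bound still lies above the median. The groups did not overlap for 11 members, and for 21.3% of all genes.

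Of the glutamate carriers, SLC1A3 (EAAT1 or GLAST), best known from astrocytes, fell and SLC1A1 (EAAT3), a carrier of neurons and epithelia, rose. SLC1A3 held 17.5, 14.2 and 21.7 CPM in control lungs (17.8 ± 3.79, n = 3) and 5.07, 8.23 and 7.39 CPM at 4 h (6.89 ± 1.63, n = 3). All treated values lay below all control values, a difference of -1.39 ± 0.24 (Storey q = 0.00211 in the quasi-likelihood test). SLC1A1 held 47.2, 38.6 and 52.0 CPM in controls (46.0 ± 6.79, n = 3) and 65.7, 76.2 and 78.7 CPM at 4 h (73.5 ± 6.88, n = 3), again with no overlap (0.68 ± 0.17, q = 0.0232). SLC1A2, the main glutamate carrier of astrocytes, had 56 reads over all 15 lungs and was under the read minimum there, as was SLC1A6 with 3 reads.

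SLC7A13, a light chain that carries aspartate, glutamate and cystine in kidney, was a low gene with a steep drop. Control lungs held 14, 11 and 21 reads and lungs at 4 h held 1, 0 and 0 reads. The control level was 65 times the 4 h level with a 95% counting interval of 11.1 to 2620, which covers counting error only (Storey q = 0.00087). It kept its call in all 12 alternatives that gave it a value, while DESeq2 gave it no adjusted p.

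Among the heterodimeric exchangers no other member was called. SLC3A2 (CD98), the heavy chain that brings several SLC7 carriers to the cell surface, held 58.8, 52.9 and 54.1 CPM in controls and 87.5, 68.1 and 71.4 CPM at 4 h, a difference of 0.46 ± 0.16 that passed the adjusted p (q = 0.0796) but not the fold threshold. SLC7A8 (LAT2), a light chain for neutral amino acids and thyroid hormones, held 55.3, 23.8 and 62.3 CPM in controls and 120.5, 63.6 and 87.3 CPM at 4 h. The groups did not overlap, but the difference of 0.94 ± 0.43 was not called (q = 0.174). SLC7A5, the other well-known partner of SLC3A2, was not analysed here.

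SLC7A2, a cationic amino acid carrier that supplies arginine, was called lower although its groups overlapped. Control lungs held 78.6, 93.1 and 148.6 CPM and lungs at 4 h held 79.7, 42.6 and 57.0 CPM, so that 1 treated lung lay above the lowest control (-0.83 ± 0.29, Storey q = 0.0793). SLC6A16, an SLC6 member without a settled substrate, held 5.71, 5.20 and 4.97 CPM in controls and 3.96, 2.62 and 2.88 CPM at 4 h, with no overlap (-0.73 ± 0.24, q = 0.0609). Each of these calls was lost in 7 of 13 alternatives. Without the control lung of animal 15-101 the comparison called 2 of the 6, SLC7A13 and SLC1A3.

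The remaining carriers showed no call at 4 h. The glycine carrier SLC6A9 held 48.1, 44.9 and 44.6 CPM in controls and 42.2, 46.4 and 38.5 CPM at 4 h. The serotonin transporter SLC6A4, which lung endothelium uses to clear serotonin from blood, held 16.2, 9.38 and 10.7 CPM in controls and 13.5, 10.7 and 13.7 CPM at 4 h. These groups overlapped for both genes.

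The dopamine transporter SLC6A3 averaged 5.20 ± 2.01 CPM in controls and 2.09 ± 1.47 CPM at 4 h (-1.36 ± 0.83, q = 0.294), and the norepinephrine transporter SLC6A2 averaged 0.123 and 0.513 CPM. The creatine carrier SLC6A8 held 18.8 to 24.6 CPM in controls and 20.8 to 25.8 CPM at 4 h. All 11 SLC38 carriers and all 3 SLC43 carriers were tested and 0 were called, with log2 fold changes from -1.23 to 1.04 and from -0.27 to 0.54 respectively.

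**Figure D2:**
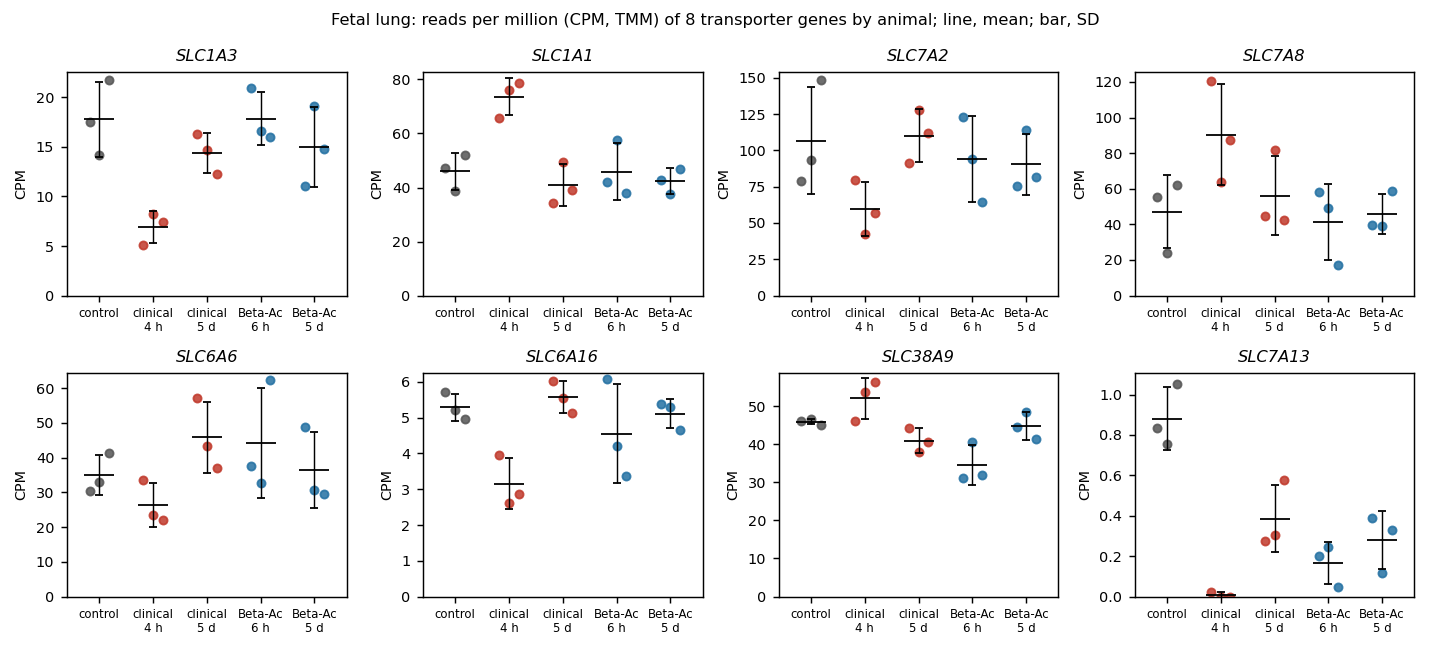
CPM of 8 transporter genes in the 5 lung groups, 1 point per animal, with the line at the mean and the bar at 1 SD. SLC1A3 is lowest and SLC1A1 highest at 4 h after the clinical drug, where SLC7A13 lies at or near 0, and both glutamate carriers sit near the control level in the other 3 treated groups.

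Cell type markers moved in the same 4 h lungs. The summed level of 4 markers of type 2 epithelium was 10261 to 16400 CPM at 4 h and 6090 to 9174 CPM in controls, and that of 3 leukocyte markers was 14.5 to 30.5 CPM against 40.6 to 54.6 CPM. Of 3 endothelial markers the sum was 1554 to 2188 CPM against 2217 to 2363 CPM, with KDR called lower. None of these sums overlapped between the groups, and their part in the transporter differences was not tested. The sums of 3 type 1 markers (1560 to 2322 against 901 to 1652 CPM), 3 mesenchyme markers (4294 to 4575 against 3616 to 5172 CPM) and 2 ciliated markers (11.7 to 43.9 against 13.5 to 35.3 CPM) overlapped. After Beta-Ac the endothelial sum also lay below all controls at 6 h (1995 to 2102 CPM) and 5 days (1805 to 1949 CPM). The type 2 sum lay above all controls at 5 days after Beta-Ac (9277 to 11079 CPM). It overlapped with controls at 6 h, as did both sums at 5 days after the clinical drug. The leukocyte sums of the other treated groups overlapped with controls.

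At 6 h after Beta-Ac no member was called against control with edgeR (0 of 40), where 0.442% of all genes were, and 6 members had an unadjusted p under 0.05, where 11.5% of all genes did. DESeq2 called 2, SLC6A20 and SLC7A13, and 1.4% of all genes. SLC7A13 held 4, 7 and 1 reads after Beta-Ac against 14, 11 and 21 in controls, without overlap (-2.34 ± 0.59, q = 0.13 in the quasi-likelihood test).

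SLC38A9, the lysosomal carrier through which arginine signals to mTORC1, held 46.1, 46.6 and 45.1 CPM in controls and 31.2, 40.5 and 31.8 CPM at 6 h after Beta-Ac, also without overlap (-0.41 ± 0.12, q = 0.179). SLC1A5 (ASCT2), a glutamine exchanger, held 3.15, 4.11 and 3.01 CPM in controls and 5.01, 7.50 and 10.03 CPM at 6 h (1.14 ± 0.37, q = 0.24). SLC1A3 averaged 17.8 ± 2.66 CPM at 6 h and 17.8 ± 3.79 CPM in controls (difference 0.00, q = 0.758), and SLC1A1 averaged 45.9 ± 10.4 and 46.0 ± 6.79 CPM.

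Lungs of the 2 drugs were then compared directly at their early times, which differ in dose and hour. Of 40 members 9 were called (22.5%, 4 higher and 5 lower after the clinical drug), against 6.74% of all genes (2.62% higher, 4.11% lower). The groups did not overlap for 20% of members and for 22.4% of all genes. The animal numbers also separate these groups, beginning with 15 in all 3 lungs at 4 h and with 16 or 17 at 6 h, so that drug, dose, time and series of animals cannot be told apart.

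Both glutamate carriers differed directly. SLC1A3, with 20.9, 16.6 and 16.0 CPM at 6 h after Beta-Ac, was lower by -1.39 ± 0.24 after the clinical drug (Storey q = 0.00526 in the quasi-likelihood test). SLC1A1, with 42.2, 57.7 and 37.9 CPM at 6 h, was higher by 0.68 ± 0.17 (q = 0.0273), and neither pair of groups overlapped. The SLC1A3 call was kept in all 13 alternatives and the SLC1A1 call was lost in 2.

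Of the SLC38 carriers, SLC38A9 held 46.1, 53.7 and 56.3 CPM at 4 h after the clinical drug, all above the 6 h lungs (0.59 ± 0.12, q = 0.00967). SLC38A6 held 12.2, 14.6 and 13.8 CPM against 10.6, 8.60 and 7.28 CPM (0.61 ± 0.17, q = 0.0348). SLC38A8 rested on 6, 4 and 2 reads against 20, 9 and 12 (-1.80 ± 0.70, q = 0.0996).

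The other calls of this comparison were SLC7A8 higher after the clinical drug, with 58.0, 49.1 and 17.3 CPM at 6 h (1.13 ± 0.43, q = 0.0961), and SLC7A13, SLC6A7 and SLC6A6 lower. SLC7A13 was 12.7 times higher at 6 h, with a 95% counting interval of 1.87 to 541 (q = 0.0454). SLC6A7, the proline carrier of brain synapses, rested on 6, 1 and 7 reads at 4 h against 11, 21 and 9 reads at 6 h (-1.46 ± 0.54, q = 0.0906). SLC6A6, the taurine carrier, held 33.7, 23.5 and 22.1 CPM at 4 h and 37.6, 32.7 and 62.3 CPM at 6 h, which overlap (-0.73 ± 0.27, q = 0.0861). Without the 4 h lung of animal 15-85, 2 members were called, SLC1A1 and SLC1A3, and without that of animal 15-97, 4 were, all of them among the 9. Without replicate 3 of Beta-Ac at 6 h, 5 members were called, of which SLC1A3 and SLC7A13 were among the 9. The calls of SLC7A8, SLC38A8 and SLC6A7 were each lost in 9 of 13 alternatives, DESeq2 and Benjamini-Hochberg adjustment included, and with only these groups fitted SLC1A3 was the 1 member called.

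On day 5 after injection no member was called against control in lung. For the clinical drug the count was 0 of 40 with edgeR (0% of all genes) with 3 members at an unadjusted p under 0.05 (4.39% of all genes) and 0 called by DESeq2 (0.0907% of all genes). For Beta-Ac the count was 0 of 40 (0.00567% of all genes) with 5 members at an unadjusted p under 0.05 (6.42% of all genes) and 1, SLC6A20, called by DESeq2 (0.227% of all genes). SLC7A13 still had fewer reads than controls in both groups, 6, 9 and 15 after the clinical drug (-1.18, q = 0.931) and 10, 3 and 9 after Beta-Ac (-1.64, q = 0.676), and neither difference passed the adjustment. SLC38A10 held 162, 144 and 156 CPM at 5 days after Beta-Ac and 141, 119 and 113 CPM in controls (0.31, q = 0.665). SLC43A3, which carries purine bases, held 35.4, 24.1 and 40.4 CPM after Beta-Ac and 22.8, 17.7 and 22.4 CPM in controls (0.67, q = 0.693).

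Within the clinical drug, 4 h and 5 days differed in 6 of 40 members (15%, 1 higher and 5 lower at 4 h), against 10.4% of all genes (4.47% higher, 5.92% lower). All 4 h lungs came from animals numbered from 15 and all day 5 lungs from animals numbered from 16, so that time and series of animals cannot be told apart. SLC1A3, at 16.3, 14.7 and 12.2 CPM on day 5, was lower at 4 h by -1.08 ± 0.24 (Storey q = 0.0075), and SLC1A1, at 34.2, 49.5 and 39.1 CPM on day 5, was higher at 4 h by 0.84 ± 0.17 (q = 0.00513). SLC7A13 was 28.1 times higher on day 5 (95% counting interval 4.67 to 1150, q = 0.00442). These 3 calls and that of SLC6A16 (6.04, 5.56 and 5.14 CPM on day 5; -0.81 ± 0.23, q = 0.0287) were kept in every alternative tried.

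SLC7A2 and SLC6A6 were the other calls. SLC7A2 held 91.3, 127.6 and 111.7 CPM on day 5 (-0.88 ± 0.29, q = 0.0475) and SLC6A6 held 57.1, 43.5 and 37.1 CPM (-0.79 ± 0.27, q = 0.0541), in each case all above the 4 h lungs. Within Beta-Ac, 6 h and 5 days differed in 0 of 40 members with edgeR (0.261% of all genes), with 4 members at an unadjusted p under 0.05 (7.91% of all genes) and 0 called by DESeq2 (1.05% of all genes).

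Genes that make, break down or sense these amino acids were read from lists beside the carriers. At 4 h after the clinical drug, 2 of 19 tested genes of amino acid sensing by mTORC1 rose: RRAGD, a Rag GTPase, from 5.93 to 74.2 CPM (3.65 ± 0.31, q = 3.03e-05) and SESN1, a sestrin, from 103 to 182 CPM (0.82 ± 0.11, q = 0.000313). Of 10 genes of glutamate, glutamine and GABA metabolism 1 rose, GLUL, the glutamine synthetase, from 252 to 728 CPM (1.53 ± 0.21, q = 0.000508). Of 7 genes of monoamine metabolism 1 rose, MAOA, which degrades serotonin and norepinephrine, from 77.3 to 240 CPM (1.63 ± 0.18, q = 8.95e-05).

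Of the 19 tested ATF4 targets, which answer amino acid shortage, 2 fell, PHGDH, which starts serine synthesis, from 24.4 to 11.6 CPM (-1.08 ± 0.18, q = 0.00206) and STC2 from 60.6 to 21.3 CPM (-1.51 ± 0.31, q = 0.00746), and 0 rose. PHGDH was also the 1 gene to fall among 11 of glycine, serine, creatine and taurine metabolism. The medians of these 5 lists lay between -0.12 and 0.15, that of the mTORC1 list at 0.05, against 0.02 over all genes. A positive log2 fold change was found for 15 of the 19 mTORC1 genes and 7 of the 19 ATF4 targets. The share of all genes with one was not computed. Of all genes, 3.46% were called higher and 3.94% lower at 4 h after the clinical drug. Among 5 glucocorticoid targets 3 rose, FKBP5 by 4.94, ZBTB16 by 4.43 and PER1 by 2.30.

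At 6 h after Beta-Ac, RRAGD (24.5 CPM, 2.04 ± 0.30, q = 0.0119), GLUL (535 CPM, 1.09 ± 0.21, q = 0.0523) and MAOA (182 CPM, 1.24 ± 0.18, q = 0.0119) were also called higher than control, and no gene of the ATF4 or serine lists was called. Of all genes, 0.442% were called there. Directly compared, RRAGD was higher by 1.60, SESN1 by 0.83 and MTHFD2 by 0.63 at 4 h after the clinical drug than at 6 h after Beta-Ac, and PHGDH (-1.03), STC2 (-0.97) and ALDH5A1 (-0.64) were lower. At 5 days 0 genes of these lists were called against control in lung after either drug.

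**Figure D3:**
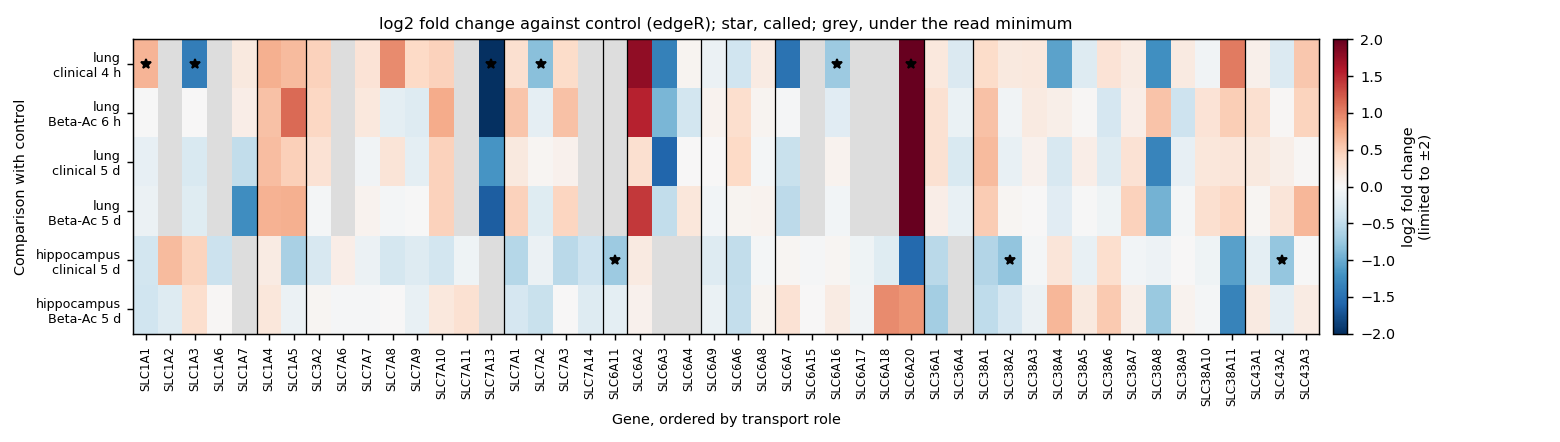
Heat map of the log2 fold change against control of the transporter genes shown, in 4 lung and 2 hippocampus comparisons, with genes ordered by transport role, colour limited to 2 in either direction, a star where a gene was called, and grey where it was under the read minimum. Stars lie in the lung row for the clinical drug at 4 h (6 genes) and the hippocampus row for the clinical drug (3 genes), and in no other row.

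In hippocampus, 5 days after the clinical drug, 3 of 44 members were called and all 3 were lower, SLC43A2, SLC38A2 and SLC6A11 (6.82%, against 7.86% of all genes called, 5.35% lower and 2.5% higher). That share is near the share of all genes. The member median was -0.13 against -0.02 over all genes. A positive log2 fold change was found for 11 of 44 members, and the share of all genes with one was not computed. Below controls without overlap lay 8 members (18.2%, against 10% of all genes). Counted in either direction, the groups did not overlap for the same 18.2% of members and for 15.1% of all genes.

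SLC43A2 (LAT4), a facilitated carrier of leucine and other branched or aromatic amino acids, held 33.9, 43.4, 30.4, 41.3 and 28.9 CPM in controls (35.6 ± 6.47, n = 5) and 19.3, 19.1, 21.7, 20.6 and 23.9 CPM after the clinical drug (20.9 ± 1.96, n = 5). No treated value reached the lowest control (-0.77 ± 0.15, Benjamini-Hochberg q = 0.0138 in the quasi-likelihood test). SLC38A2 (SNAT2), which takes up alanine, serine and glutamine and is known to respond to amino acid supply, held 28.03, 32.9, 27.1, 37.8 and 24.3 CPM in controls (30.0 ± 5.33, n = 5) and 19.3, 18.5, 17.98, 15.2 and 16.0 CPM after the clinical drug (17.4 ± 1.73, n = 5). The groups again did not overlap (-0.79 ± 0.18, q = 0.0174).

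SLC6A11 (GAT3), the GABA carrier of astrocytes, held 73.2, 74.7, 60.6, 89.996 and 53.1 CPM in controls (70.3 ± 14.2, n = 5) and 38.9, 37.3, 43.4, 42.6 and 50.02 CPM after the clinical drug (42.4 ± 4.95, n = 5). The highest treated value was just under the lowest control, the choroid plexus control (-0.73 ± 0.19, q = 0.0265).

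A further 7 members passed the adjusted p without reaching the 1.5-fold threshold, all lower after the clinical drug. The share of all genes that passed the adjusted p without that threshold was not computed. At an unadjusted p under 0.05 lay 31.8% of members and 30.6% of all genes. SLC6A6, the taurine carrier, held 33.2, 28.7, 28.6, 26.1 and 26.1 CPM in controls and 19.7, 22.8, 20.5, 20.3 and 18.5 CPM after the drug (-0.49 ± 0.15, q = 0.0438). SLC3A2 held 98.9, 99.8, 110.2, 99.4 and 116 CPM against 80.8, 77.2, 89.1, 79.2 and 92.6 CPM (-0.32 ± 0.10, q = 0.0454). SLC7A1, the main arginine carrier, held 43.6, 50.4, 47.7, 52.5 and 43.02 CPM against 32.6, 34.8, 29.9, 30.7 and 32.2 CPM (-0.57 ± 0.18, q = 0.0475).

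None of these 3 genes overlapped between the groups, and neither did SLC7A3 (-0.54 ± 0.18, q = 0.0541) and SLC1A1 (-0.37 ± 0.13, q = 0.0633). SLC38A1 (-0.58 ± 0.22, q = 0.0861) and the proton-coupled SLC36A1 (-0.54 ± 0.20, q = 0.0807) overlapped with controls. All 4 cationic carriers tested, SLC7A1, SLC7A2, SLC7A3 and SLC7A14, had negative log2 fold changes, with 0 called.

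The astrocyte glutamate carriers had log2 fold changes above 0. SLC1A3 held 1289, 1246, 1829, 1329 and 1415 CPM in controls and 1998, 1466, 2555, 1719 and 1915 CPM after the clinical drug (0.44 ± 0.19, q = 0.121), and SLC1A2 held 65.9, 122.1, 145.2, 116 and 181.3 CPM against 174.2, 142.3, 251.7, 188.8 and 218.3 CPM (0.63 ± 0.27, q = 0.132). The groups overlapped for both and neither was called, although SLC1A2 was called higher with DESeq2, with Storey's adjustment and with only control and clinical drug libraries fitted. The summed level of 4 astrocyte and radial glia markers ranged from 970 to 1613 CPM in controls (median 1112) and from 1581 to 2071 CPM after the clinical drug (median 1867), with AQP4, a water channel of astrocytes, called higher at 1042 against 546 CPM (0.93, q = 0.0225). The summed level of 4 markers of meninges was 59.5 to 135 CPM after the clinical drug and 116 to 429 CPM in controls, the highest in the choroid plexus control. The part of these cells in the carrier differences was not tested.

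The hippocampus calls were read against the library that stood apart and the sequencing runs. Without the choroid plexus control, 8 members were called: SLC43A2 (-0.83), SLC38A2 (-0.86) and SLC6A11 (-0.81) were kept, SLC7A1, SLC7A3, SLC36A1 and SLC38A1 joined them as lower and SLC1A2 as higher. Without clinical drug library 16-120 the count was 5. The share of all genes called in these refits was not computed, so that the counts are not read as particular to the members. The controls were spread over 4 runs and the treated libraries over 2 of them, run 1630 and run 0164, each with 1 control. With the run as a covariate the log2 fold changes were -0.49 for SLC43A2 (q = 0.0927), -0.59 for SLC38A2 (q = 0.124) and -0.42 for SLC6A11 (q = 0.266), and none of the 3 was called. One other member was then called, SLC38A11, of which the choroid plexus control held 34.0 CPM where the other 4 controls held 1.83 to 5.29 CPM.

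Within run 1630 (1 control, 3 clinical drug libraries) the differences were -0.60 for SLC43A2, -0.54 for SLC38A2 and -0.61 for SLC6A11. Within run 0164 (the choroid plexus control and 2 clinical drug libraries) they were -0.38, -0.64 and -0.20. With 1 control per run these values carry no test, and all 6 were negative.

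After Beta-Ac in hippocampus no member was called against control with edgeR (0 of 44, 0% of all genes). Of the members, 6 had an unadjusted p under 0.05 (12.3% of all genes), and DESeq2 called 1 (0.857% of all genes), SLC36A1, a proton-coupled carrier of glycine and alanine. SLC36A1 held 31.1, 38.9, 32.2, 28.95 and 18.2 CPM in controls and 20.7, 21.7, 13.8, 15.5 and 21.2 CPM after Beta-Ac (-0.68, q = 0.247), overlapping through the choroid plexus control. SLC6A6 held 23.9, 19.7, 18.2, 13.7 and 27.1 CPM after Beta-Ac (-0.47, q = 0.256). With the groups named by the treatment field instead, the 3 calls SLC43A2, SLC38A2 and SLC6A11 belong to betamethasone acetate at 0.125 mg/kg, so that which drug they follow depends on which label is right.

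Compared directly in hippocampus, the clinical drug and Beta-Ac differed in 0 of 44 members with edgeR (0% of all genes), with 9 members at an unadjusted p under 0.05 (13.5% of all genes) and 1, SLC1A2, called by DESeq2 (1.07% of all genes). SLC1A2 held 184.8, 71.4, 103.7, 76.1 and 91.0 CPM after Beta-Ac, of which 4 lay below every clinical drug library (clinical drug against Beta-Ac 0.89 ± 0.27, q = 0.23). SLC43A2 was the 1 member without overlap (2.27% of members, against 2.76% of all genes). It held 29.2, 26.9, 26.3, 30.9 and 43.1 CPM after Beta-Ac (-0.58 ± 0.15, q = 0.219). The clinical drug calls are therefore not shown to differ between the drugs.

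**Figure D4:**
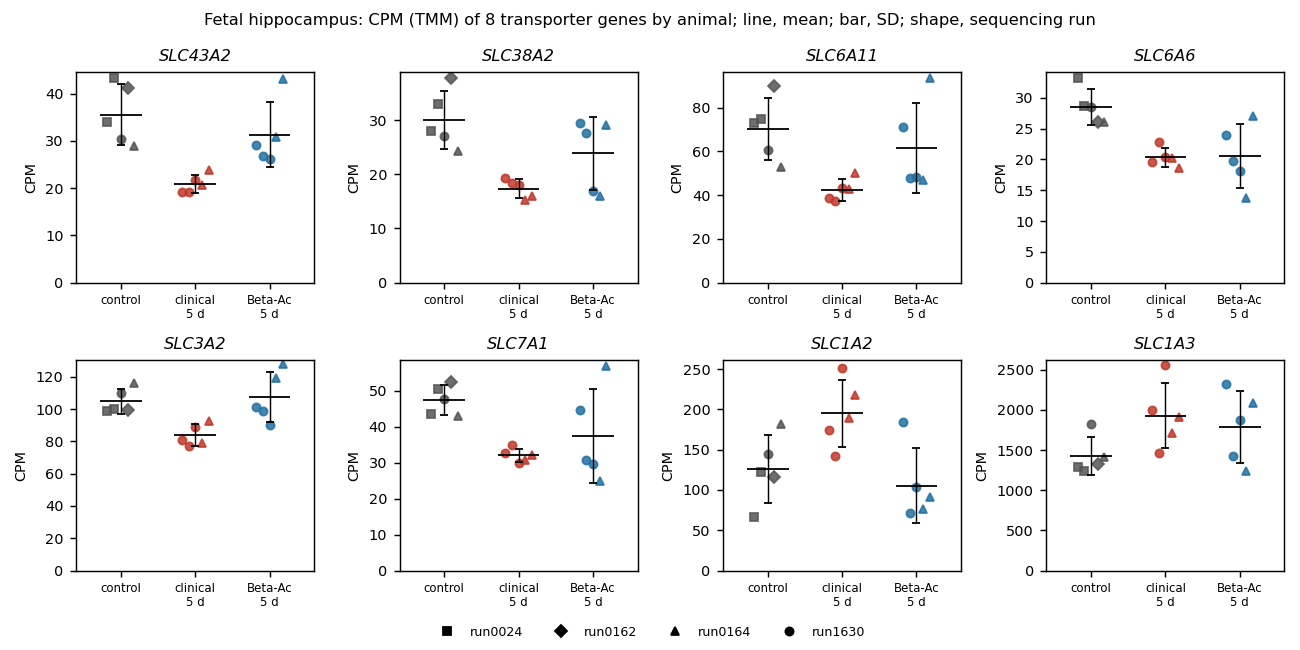
CPM of 8 transporter genes in the 3 hippocampus groups, 1 point per animal, with the line at the mean, the bar at 1 SD and the point shape for the sequencing run. For SLC43A2, SLC38A2, SLC6A11, SLC6A6, SLC3A2 and SLC7A1 every clinical drug library lies below every control, and for SLC43A2 every Beta-Ac library lies above every clinical drug library.

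The vesicular neutral amino acid carrier SLC6A17 averaged 345.1 ± 70.3 CPM in controls and 325 ± 36.6 CPM after the clinical drug, SLC1A4 283.1 ± 31.0 and 317 ± 57.6 CPM, SLC6A8 99.8 ± 7.13 and 96.9 ± 8.23 CPM, and SLC38A3, a glutamine carrier, 83.4 ± 21.8 and 81.3 ± 17.5 CPM (n = 5 each). The light chain SLC7A6 averaged 135 ± 28.5 and 148 ± 14.4 CPM, SLC6A9 34.6 ± 3.96 and 28.9 ± 6.32 CPM, and SLC6A2 1.91 ± 0.793 and 2.18 ± 0.305 CPM. None of these was called in any hippocampus comparison.

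Of the metabolic lists in hippocampus, PSAT1, a serine synthesis enzyme, rose after the clinical drug from 84.6 to 143 CPM (0.76 ± 0.14, Benjamini-Hochberg q = 0.0138), and SARS1 (-0.60, q = 0.0307), CASTOR2 (-0.73, q = 0.0355) and MAOA (48.5 to 28.1 CPM, -0.78 ± 0.25, q = 0.0503) fell. These were 1 higher and 1 lower of 19 ATF4 targets, 1 lower of 19 mTORC1 genes and 1 lower of 9 monoamine genes. Of all genes, 2.5% were called higher and 5.35% lower. None of 14 genes of glutamate, glutamine and GABA metabolism and none of 5 glucocorticoid targets was called, and 0 genes of any list were called after Beta-Ac or between the drugs.

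The same 9 animals gave both tissues, and 48 members were in both tables and passed in at least one tissue. The tables were normalized separately, so that only wide gaps are read. In the 3 control animals every hippocampus lay above every lung for 26 members, every lung above every hippocampus for 13, and the ranges overlapped for 9. Over all 9 animals these counts were 19, 11 and 18. They apply no minimum width of gap, and the share of all genes was not computed for them. The counts are therefore not read as particular to the members.

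Carriers higher in hippocampus included SLC1A3 (control means 1454 and 17.8 CPM in hippocampus and lung), SLC1A4 (292 and 2.03 CPM) and SLC6A7 (156 and 0.591 CPM). SLC6A17, SLC6A15, SLC1A6, SLC1A2, SLC6A11, SLC7A14 and SLC7A11 passed in hippocampus and not in lung, where they had 18, 18, 3, 56, 17, 32 and 47 reads over all 15 libraries. The brain carriers of glutamate, GABA, proline and neutral amino acids are in this set.

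Carriers higher in lung included SLC7A2 (control means 107 and 12.1 CPM in lung and hippocampus), SLC38A9 (45.9 and 16.8 CPM) and SLC43A3 (21.0 and 6.58 CPM). SLC6A9 (45.9 and 32.6 CPM) did not overlap between the tissues either, but its gap is not wide and is not read. SLC6A4, SLC6A3, SLC7A13, SLC1A7 and SLC36A4 passed in lung and not in hippocampus, where they had 269, 37, 7, 12 and 2 reads, 218 of the SLC6A4 reads in animal 16-130. The serotonin and dopamine transporters are made in brain chiefly by neurons whose cell bodies lie outside the hippocampus.

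**Figure D5:**
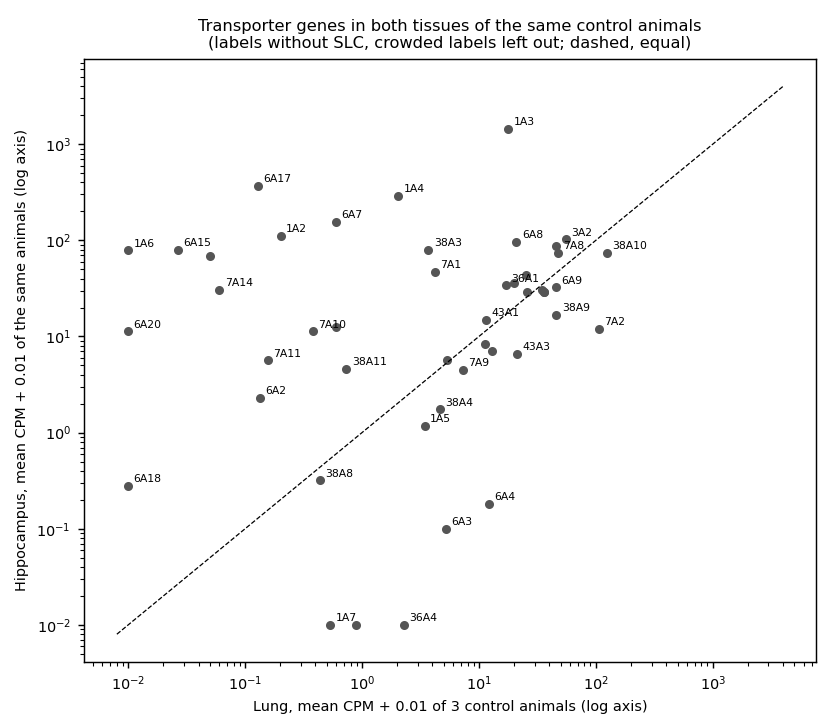
Mean CPM plus 0.01 of the transporter genes shown, in lung (horizontal) and hippocampus (vertical) of the same 3 control animals, both on log axes, with a dashed line of equal values. SLC1A3, SLC6A17 and SLC1A4 lie far above the line and SLC6A4, SLC6A3, SLC36A4 and SLC7A2 below it, and SLC6A20 lies at 0 reads in lung.

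Of the matched symbols, 5 passed in neither tissue: SLC36A2 (13 lung and 1 hippocampus reads), SLC36A3 (3 and 0), SLC3A1 (20 and 71), SLC6A5 (1 and 18) and SLC6A19 (1 and 4). SLC6A18 passed in hippocampus at a mean of 0.234 CPM in controls and had 0 reads in lung. SLC7A6 was matched in the hippocampus table alone. SLC6A12, SLC6A14, SLC7A4, SLC7A5 and SLC7A6OS were matched in neither table and were not analysed here.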

How the data were processed

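The deposited files held raw read counts per Ensembl gene, which the authors made from 75 bp paired-end reads with the rhesus assembly MMUL1.0. The paper names Bowtie 2 and featureCounts. The submitters' processing notes name Bowtie 1.2.1.1 and featureCounts 1.5.1 for lung, and Bowtie2, featureCounts and edgeR without versions, with poly(A) selection, for hippocampus. From these counts, TMM factors, log2 CPM (prior count 2) and edgeR 4.0.16 quasi-likelihood fits (R 4.3.3) were computed for each tissue over all its groups, after the filter of at least 7 reads in 3 lung or 5 hippocampus libraries, and fold changes used a prior count of 0.125. Symbols came from a rhesus name table. The alternatives were DESeq2 1.42.0, other normalizations, filters and adjustments, sequencing run as a covariate, groups by the treatment field, and each library left out in turn. Scripts were tested on simulated data. Replicates differed by more than sampling noise (chi-square per degree of freedom 14.6 to 261.4). Values in full are given for SLC6A20, for members called in any comparison and for the highest member of each role in each tissue. Values of 1 member are not reported here, and counts include it. The named members and lists were chosen with earlier results of these data known. Intervals and floors cover counting error only.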

Additional observations from a re-analysis of the deposited data

Results flagged for a closer look

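In hippocampus 4 of 84 groups of 5 values held a library separated from the rest by Dixon's test, where 4.2 are given by chance. Of these, 3 were the same control, the library with choroid plexus markers: SLC38A10 at 104 CPM (70.5 to 75.6 CPM in the other controls), SLC6A17 at 224.1 CPM (353.4 to 394.8 CPM) and SLC7A6 at 185.3 CPM (118 to 128 CPM). The fourth was SLC6A20 in clinical drug library 16-126, at 2.75 CPM against 7.51 to 10.7 CPM in the others. Groups of 3 lungs were not tested.

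In the direct test of early lungs, the clinical drug differed from Beta-Ac for 9 members: SLC1A3 by -1.39, SLC7A13 by -3.24, SLC38A8 by -1.80, SLC6A7 by -1.46 and SLC6A6 by -0.73, and SLC7A8 by 1.13, SLC1A1 by 0.68, SLC38A6 by 0.61 and SLC38A9 by 0.59 on the log2 scale. The fitted values of SLC7A13, SLC38A8 and SLC6A7 rest on at most 21 reads per library.

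The 4 h and 5 day lungs after the clinical drug differed for 6 members: SLC1A3 by -1.08, SLC7A2 by -0.88, SLC7A13 by -4.40, SLC6A6 by -0.79, SLC6A16 by -0.81 and SLC1A1 by 0.84. Fitted values of SLC7A13 depend on the prior count, since 2 of its 4 h lungs held 0 reads.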

How the results depend on the processing

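Of 467 alternative values for 33 results on single genes, 368 kept direction and side of the threshold, 86 kept direction and lost the call, 2 gained one and 11 changed sign, all 11 for SLC6A20, whose differences were not called in those comparisons. These totals include the grouping by the treatment field, which only exchanges the names of the treated hippocampus groups. Without a filter on low counts the members called were 3 for the clinical drug at 4 h against control and 4 for it against Beta-Ac at 6 h. In that second comparison they were 1 with only those groups fitted and 5 with Benjamini-Hochberg adjustment. DESeq2 called 2 members for Beta-Ac at 6 h, 1 for Beta-Ac at 5 days in lung and, in hippocampus, 1 for Beta-Ac, 1 for the direct drug comparison and 4 for the clinical drug. Without a fold threshold the counts were 11 for the clinical drug at 4 h against 5 days and 10 for the clinical drug in hippocampus. There, run as a covariate gave 1, and groups by the treatment field gave 0, with 3 for Beta-Ac. Leaving out each library gave 2 to 5 calls at 4 h against control (2 without control 15-101, 3 without 16-113 or 15-85), 2 to 8 at 4 h against 6 h, 4 to 7 at 4 h against 5 days, 3 to 8 for the clinical drug in hippocampus and 0 to 0 in the other 6 comparisons. The share of all genes called was not computed with a library left out or without the fold threshold, and the causes were not tested.

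SLC6A20 changed sign between 4 h and 5 days of the clinical drug (0.10 without 15-97, 0.18 without 16-120, 0.23 without 16-126), between 4 h and 6 h (0.43 without 16-123) and between 6 h and 5 days of Beta-Ac (-1.03 without 16-123, -0.30 without 16-130). In hippocampus it did so for Beta-Ac against control without 16-130 (-1.52), with run as a covariate (-0.27) and by the treatment field (-1.56), and by that field for the clinical drug against control (0.89) and against Beta-Ac (2.44). The values by the treatment field are the main values under exchanged group names, so that their sign changes were fixed in advance. Within a tissue no paired analysis was possible, because the groups compared share no animals. Lung and hippocampus of the same animals were compared by their ranges over animals, and that comparison did not use the pairing. With 3 lungs per group, genes of few reads per library, such as SLC7A13, SLC6A7 and SLC38A8, are limited by depth.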
